A study of Homo sapiens with 4 samples.

Results

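The 42 genes that build, transfer and trim the N-glycan in the endoplasmic reticulum (ER) were compared between prostate cancer cells with and without UGT2B17. They were listed by symbol and mapped to the Ensembl identifiers of the count table, which held 60880 genes, and 40 of the 42 had enough reads to be tested. LNCaP95 was derived from LNCaP prostate cancer cells by long growth without androgen, and it gave 2 libraries (genotype WT, replicates 1 and 2). LN95(KO) was derived from LNCaP95 by CRISPR targeting of UGT2B17, an enzyme that glucuronidates androgens, and it also gave 2 libraries (replicates 3 and 4). All 4 libraries came from untreated cells grown in RPMI1640 with charcoal-stripped serum, so both groups lacked most serum steroids. The serum was 10% per the labels, and the study's methods give a lower percentage for LNCaP95. LN95 is given as the cell line of all 4 libraries, whereas the design of the series calls the knockout line LNCaP(UGT2B17 KO), and how many knockout clones they represent was not given.

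An N-glycan is first assembled on the lipid dolichol, beginning on the cytosolic face of the ER membrane and ending in its lumen, from nucleotide sugars and from dolichol-linked mannose and glucose. Oligosaccharyltransferase (OST), a membrane complex, then moves the whole glycan onto asparagine residues of proteins entering the ER. Glucosidases trim the transferred glycan, a glucosyltransferase marks proteins that are still misfolded for another round of folding, and mannosidases and Golgi enzymes act on the glycan afterwards. In prostate cells this pathway serves a heavy secretory load, since kallikreins and prostate membrane antigens are glycoproteins.

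RNA with poly(A) tails was sequenced, and the deposited values were raw read counts per gene. Libraries held 17330338 to 18813193 gene reads. Unaligned reads made up 3.85% and 3.96% in LNCaP95 against 8.05% and 7.71% in LN95(KO). The targeted gene followed the labels, since UGT2B17 counts were 2788 and 2748 in LNCaP95 against 21 and 20 in LN95(KO), with a log2 fold change of -7.04 ± 0.10 (SE; edgeR adjusted p = 1.18e-18). All 9 luminal prostate markers had reads in every library, with a summed level of 3030 and 3036 CPM (counts scaled to library size with TMM factors) in LNCaP95 and 3826 and 3657 in LN95(KO). The endothelial marker list summed to 0.433 and 0.491 CPM against 2.77 and 3.18 CPM. Nearly all of it was VWF, while CDH5 was at 0 in all 4 libraries. The fibroblast list summed to 31.2 and 30.2 CPM against 35.7 and 32.6 CPM, mostly COL1A1, which rose by 0.22 on the log2 scale (edgeR adjusted p = 0.0227). In the same list LUM had 24 and 19 counts in LNCaP95 against 0 and 0 in LN95(KO), and DCN was at 0 in every library. The leukocyte list summed to 0.108 to 0.339 CPM, with CD3E at 0. The part of these differences in the results below was not tested, and in bulk RNA fewer cells of a type cannot be told apart from less RNA per cell.

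None of the 40 tested members was called at more than a 2-fold change, but most of them shifted slightly, in both directions. Fold changes are LN95(KO) over LNCaP95 and are given on the log2 scale with their SE, gene positions are those of GRCh37, a called gene had both an adjusted p below 0.05 and more than a 2-fold change, and the test was the quasi-likelihood test of edgeR with Benjamini-Hochberg adjustment over all 15626 genes tested. By this rule 0 of 40 members were called, against 18% of all genes tested. DESeq2 also called 0, and 29 members had an unadjusted p under 0.05 in edgeR. At any fold, 28 members passed an adjusted p of 0.05, of which 15 rose and 13 fell. Among all genes tested the share that passed was 59.8%, with 29.8% higher and 30.1% lower in LN95(KO), so the members stood near the background. With scaling by library totals alone, 28 members also passed, 18 higher and 10 lower, but they were not all the same genes. DPM1, ALG5 and MOGS, all lower, no longer passed, and NUS1, MPI and ALG9, all higher, did. The libraries of the 2 groups did not overlap in CPM for 33 members, against 79.8% of all genes tested.

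The changes were also narrow in size. Log2 fold changes of the 40 members ran from -0.51 for ALG2 to 0.54 for DPAGT1, with a median of 0.03, while the median over all genes tested was -0.01. For all 40 members the 95% interval of the fold change lay inside 2-fold in both directions. The median absolute log2 fold change was 0.24 among the members and 0.37 among all genes tested. Low counts widen fold changes, so the members were also set beside the 10485 genes whose mean count reached that of the lowest tested member, 114 counts. The median absolute log2 fold change of these genes was 0.29, closer to that of the members. Of these genes, 27.4% had a larger absolute log2 fold change than DPAGT1, and 11.4% were called. With 2 libraries in each group that are not stated to be separate cultures, the p-values measure the spread between these libraries, which may be technical. Without each library in turn, 19 of the 28 members still passed, and the 9 that did not are named below.

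**Figure D1:**
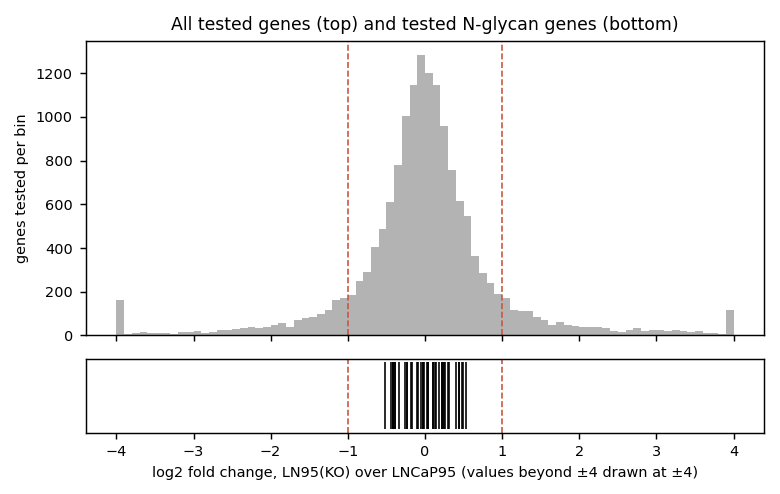
Histogram of log2 fold changes (LN95(KO) over LNCaP95) of the 15626 genes tested, with the largest values gathered in the end bins, above a strip with 1 vertical line for each of the 40 tested N-glycan genes. Dashed lines mark 2-fold changes. The members lie between -0.51 and 0.54, inside the dashed lines, whereas 18% of all genes tested were called beyond them.

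The study asked about the unfolded protein response, so the promoters of the members were searched for the elements that this response uses. The windows were RefSeq promoters on GRCh38.p14, from 250 bases before to 50 bases after each annotated start, and 37 of the 42 members had one. ALG10, STT3B, RPN1, TUSC3 and MOGS had none. Both strands were searched for the ER stress element ERSE (CCAAT and CCACG with 9 bases between them), for ERSE-II (ATTGG and CCACG with 1 base between them) and for the unfolded protein response element UPRE (TGACGTGG). ERSE was found in 1 member, ALG12 (2.7% of the 37), and in 0.0769% of all 35116 promoters. UPRE was found in 1 member, DHDDS (2.7% of the 37), and in 0.729% of all promoters. ERSE-II was found in 0 members and in 0.0541% of all promoters. Members were counted by gene and the background by promoter, so these shares also differ in unit. With 1 match at most for each element, no difference between members and all promoters can be read from them. The 2 windows are shown, with the motif in capitals, because they are the only matches among the members. The first is on the strand of its gene at chr22:49918548-49918577 (minus strand), with the motif beginning at -134 from the start of ALG12. The second is on the minus strand, opposite to its gene, at chr1:26432303-26432332. Its motif is printed against the direction of DHDDS, and the last printed base of the motif is at -7 from the start of that gene.
ALG12: atggcCCAATccgagttcgCCACGagaggt
DHDDS: gcacttcctcaTGACGTGGcgctggcagaa
ALG12 fell, as described below, and DHDDS did not pass the test. A match describes the letters of the window and not the binding of a factor.

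Among the genes that supply dolichol and sugar donors, transcripts of the enzyme that makes dolichol-linked mannose were lower in LN95(KO). Of the 10 donor genes tested, 4 fell, 1 rose and 5 did not pass, with a median log2 fold change of -0.06. Among all genes tested 30.1% fell and 29.8% rose. All 3 subunits of dolichol-phosphate mannose synthase were among those that fell: DPM1 is catalytic, and DPM2 and DPM3 hold it in the membrane. DPM3 (chromosome 1, 155112367 to 155113071 of GRCh37, minus strand) measured 66.4 and 60.3 CPM in LNCaP95 and 47.5 and 47.6 CPM in LN95(KO). Its log2 fold change was -0.42 ± 0.07 (edgeR adjusted p = 3.73e-05). DPM2 (chromosome 9, 130697378 to 130700133, minus strand) had 1081 and 1080 counts against 708 and 878, or 58.8 ± 0.281 CPM against 44.1 ± 5.74 CPM (SD, n = 2), a log2 fold change of -0.41 ± 0.08 (edgeR adjusted p = 0.000179). The 2 LN95(KO) libraries stood further apart for DPM2 than the LNCaP95 libraries, though both were below them. DPM1 fell less, by 0.18 ± 0.05 on the log2 scale (edgeR adjusted p = 0.00958). The adjusted p of DPM1 was 0.0821 without LNCaP95 replicate 1 and 0.0586 without LNCaP95 replicate 2.

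ALG5, which makes dolichol-linked glucose, fell by 0.23 ± 0.08 (edgeR adjusted p = 0.0157), but its adjusted p was 0.208 without LNCaP95 replicate 1 and 0.0913 without LN95(KO) replicate 3. MPDU1, which the cell needs to use dolichol-linked mannose and glucose in the lumen, was the donor gene that rose. It measured 132 and 129 CPM in LNCaP95 and 148 and 173 CPM in LN95(KO), with a log2 fold change of 0.30 ± 0.06 (edgeR adjusted p = 0.000528). Without LN95(KO) replicate 4, the higher of the 2, the change was 0.19, and it still passed. Of the exon bases of MPDU1, 20.0% lie under exons of another gene, where reads are not assigned to either.

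DHDDS and NUS1, which together build the long dolichol chain, gave log2 values of -0.01 (95% interval -0.18 to 0.16) and 0.11 (-0.02 to 0.23). NUS1 had an adjusted p of 0.127 in edgeR and of 0.0165 without LN95(KO) replicate 3, and 9.30% of its 100-base stretches occur in a pseudogene, NUS1P1, so its counts are less certain. DOLK, the kinase that phosphorylates dolichol, was at 0.05, and MPI and PMM2, which prepare mannose phosphates, were at 0.10 and -0.10. Shared exon bases reached 24.5% for MPI and 13.7% for PMM2. SRD5A2 is listed with this group, but its name is that of a steroid reductase. It had 1 and 3 counts in LNCaP95 against 2 and 1 in LN95(KO), too few to test. Its relative SRD5A3, the polyprenol reductase that completes dolichol and no member of the list, had 2421 and 2433 counts against 1802 and 1966 counts (log2 fold change -0.33 ± 0.05, edgeR adjusted p = 3.44e-05).

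**Figure D2:**
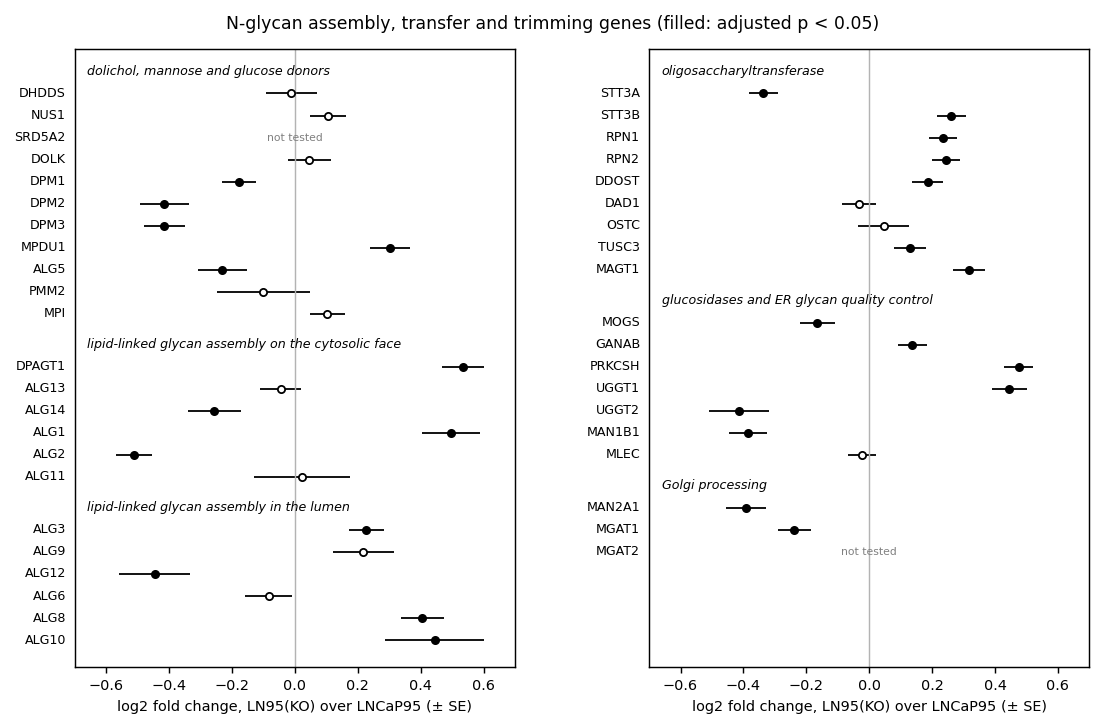
Log2 fold change (LN95(KO) over LNCaP95, horizontal axis) of each N-glycan gene, with its SE as a bar and genes grouped by step. Filled points passed an adjusted p of 0.05 and open points did not. The 15 genes that rose and the 13 that fell are spread over the steps, and SRD5A2 and MGAT2 were not tested.

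Assembly on the cytosolic face held the largest rise and the largest fall of the members. DPAGT1 (chromosome 11, 118966735 to 118979041, minus strand), the target of tunicamycin, starts the chain by placing the first sugar phosphate on dolichol phosphate. It measured 45.7 and 48.0 CPM in LNCaP95 and 64.4 and 71.3 CPM in LN95(KO), with a log2 fold change of 0.54 ± 0.07 (edgeR adjusted p = 2.71e-06). Every LN95(KO) value was above both LNCaP95 values, where 79.8% of all genes tested had groups that did not overlap. ALG1 (chromosome 16, 5083703 to 5137380, plus strand), which adds the first mannose, measured 18.5 and 16.4 CPM against 24.1 and 25.2 CPM, a log2 fold change of 0.50 ± 0.09 (edgeR adjusted p = 0.000179). The next enzyme moved the other way. ALG2 (chromosome 9, 101978707 to 101984224, minus strand), which adds the following mannoses, measured 80.2 and 83.3 CPM against 57.8 and 56.9 CPM and fell by 0.51 ± 0.06 (edgeR adjusted p = 8.34e-07).

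ALG13 and ALG14 together add the second GlcNAc (N-acetylglucosamine). ALG14, which anchors the pair, fell by 0.26 ± 0.08 (edgeR adjusted p = 0.0145), with an adjusted p of 0.199 without LNCaP95 replicate 1 and of 0.0878 without LN95(KO) replicate 3. ALG13, the catalytic partner, gave -0.05 (95% interval -0.18 to 0.09). ALG11, which adds the last mannoses on this face, had 132 and 174 counts in LNCaP95 against 139 and 165 in LN95(KO), and its interval ran from -0.30 to 0.34. Shared exon bases reached 17.4% for DPAGT1, 13.5% for ALG1 and 35.2% for ALG11. In addition, 1.32% of the 100-base stretches of ALG1 occur in other genes, so its counts are less certain.

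In the lumen, 3 of the 6 transferases rose, 1 fell and 2 did not pass, with a median of 0.22. The shares among all genes tested were 29.8% higher and 30.1% lower. ALG3, ALG9 and ALG12 add the luminal mannoses. ALG3 rose by 0.23 ± 0.06 (edgeR adjusted p = 0.00209), from 97.1 and 91.9 CPM to 107 and 114 CPM, and its adjusted p without LNCaP95 replicate 2 was 0.0532. ALG9 gave 0.22 (95% interval 0.01 to 0.42, edgeR adjusted p = 0.0625) and did not pass after adjustment. ALG12 (chromosome 22, 50293877 to 50312086, minus strand) measured 14.0 and 13.3 CPM against 10.5 and 9.53 CPM and fell by 0.45 ± 0.11 (edgeR adjusted p = 0.00278), although DESeq2 gave an adjusted p of 0.0687. Exons of other genes, CRELD2 among them, cover 42.3% of its exon bases, and for ALG9 the share was 24.2%.

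ALG6, ALG8 and ALG10 add the glucoses that OST recognizes. ALG8 rose by 0.41 ± 0.07 (edgeR adjusted p = 7.03e-05), from 44.1 and 41.7 CPM to 54.3 and 59.3 CPM. ALG10, which adds the last glucose, had the fewest counts of any tested member, with 102 and 94 in LNCaP95 against 115 and 146 in LN95(KO). It rose by 0.44 ± 0.16 (edgeR adjusted p = 0.022), yet the adjusted p was 0.112 without LNCaP95 replicate 2 and 0.189 without LN95(KO) replicate 4, where the change was 0.29. Exons of other genes cover 41.9% of the exon bases of ALG10. Its paralog ALG10B shares 6.82% of the 100-base stretches of ALG10, so reads of the pair could be lost or exchanged. ALG6 gave -0.08 (95% interval -0.24 to 0.07).

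Of the 9 OST subunits among the members, 6 rose, 1 fell and 2 did not pass, where 29.8% of all genes tested rose and 30.1% fell. Of 3 further subunits that are no members, TMEM258 fell by 0.50 (edgeR adjusted p = 1.62e-05), and OST4 (-0.07) and KRTCAP2 (0.38, edgeR adjusted p = 0.108) did not pass. The summed level of the 9 members was 2567 and 2508 CPM in LNCaP95 against 2759 and 2822 CPM in LN95(KO). The catalytic subunits went opposite ways. STT3A (chromosome 11, 125461607 to 125495110, plus strand) acts on proteins while they enter the ER, and STT3B (chromosome 3, 31574130 to 31679108, plus strand) modifies sites that were skipped. STT3A measured 413 and 404 CPM in LNCaP95 and 324 and 323 CPM in LN95(KO) and fell by 0.34 ± 0.05 (edgeR adjusted p = 6.44e-06). STT3B measured 268 and 267 CPM against 319 and 322 CPM and rose by 0.26 ± 0.05 (edgeR adjusted p = 0.000105). Neither gene had overlapping groups, as was so for 79.8% of all genes tested.

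Per length, in CPM per kilobase of the canonical transcript (RPKM), STT3A was above STT3B in LNCaP95 (90.7 ± 1.34 against 65.1 ± 0.124, SD, n = 2) and below it in LN95(KO) (71.8 ± 0.0935 against 78.0 ± 0.535). The ratio of STT3A to STT3B was 1.41 and 1.38 in LNCaP95 against 0.926 and 0.915 in LN95(KO), a log2 difference of -0.60. An exact permutation test of the ratio gave p = 0.333, the smallest two-sided value that 2 libraries against 2 allow. With all exon bases as the length, the ratios of the group means were 1.04 and 0.685, so the order of the 2 genes turned under both lengths.

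Of the listed subunits that both forms share, RPN1, RPN2 and DDOST rose and DAD1 did not pass the test. RPN1 and RPN2 (ribophorins), large subunits of both forms of the complex, rose by 0.23 ± 0.05 and 0.25 ± 0.04 on the log2 scale (edgeR adjusted p = 0.000251 and 0.000151). DDOST, which is needed to assemble the complex, rose by 0.19 ± 0.05 (edgeR adjusted p = 0.00358), with an adjusted p of 0.0954 without LNCaP95 replicate 2. Of the exon bases of DDOST, 15.7% lie under exons of another gene. DAD1, a small stabilizing subunit, gave -0.03 (95% interval -0.15 to 0.08). OSTC, which belongs to the STT3A form, gave 0.05 (95% interval -0.13 to 0.22), with 93.7 and 77.6 CPM in LNCaP95 and 83.9 and 92.9 CPM in LN95(KO), so its groups overlapped.

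TUSC3 and MAGT1 are alternative oxidoreductase subunits of the STT3B form, and both rose. MAGT1 (chromosome X, 77081244 to 77154768, minus strand) measured 180 and 176 CPM in LNCaP95 and 215 and 230 CPM in LN95(KO), with a log2 fold change of 0.32 ± 0.05 (edgeR adjusted p = 3.78e-05). TUSC3 measured 110 and 109 CPM against 120 and 119 CPM, a log2 fold change of 0.13 ± 0.05 (edgeR adjusted p = 0.0365). TUSC3 did not pass without LNCaP95 replicate 1 (adjusted p = 0.168), without LNCaP95 replicate 2 (0.201), in DESeq2 (0.178), with upper quartile factors (0.131) or with no filter on low counts (0.0723). The ratio of TUSC3 to MAGT1 per length was 0.742 and 0.755 in LNCaP95 against 0.683 and 0.632 in LN95(KO), a log2 difference of -0.19 (exact permutation p = 0.333).

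Levels per length ordered the subunits of LNCaP95 as RPN2, DAD1, RPN1, DDOST, STT3A, OSTC, STT3B, MAGT1 and TUSC3, from 265 to 29.6 RPKM. DAD1 and RPN1 overlapped, at 256 and 233 RPKM against 243 and 240 RPKM, and so did DDOST and STT3A, at 94.1 and 89.8 RPKM against 91.7 and 89.8 RPKM. The other neighbors in this order did not overlap, though STT3A and OSTC differed by less than the SD of OSTC. In LN95(KO) the order was RPN2, RPN1, DAD1, DDOST, OSTC, STT3B, STT3A, MAGT1 and TUSC3, from 314 to 32.4 RPKM. No neighbors overlapped there, but OSTC (83.2 ± 5.98) and STT3B (78.0 ± 0.535) differed by less than the SD of OSTC. Levels per length depend on the transcript chosen, and with all exon bases DAD1 came before RPN2, and STT3B before OSTC, in LNCaP95.

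**Figure D3:**
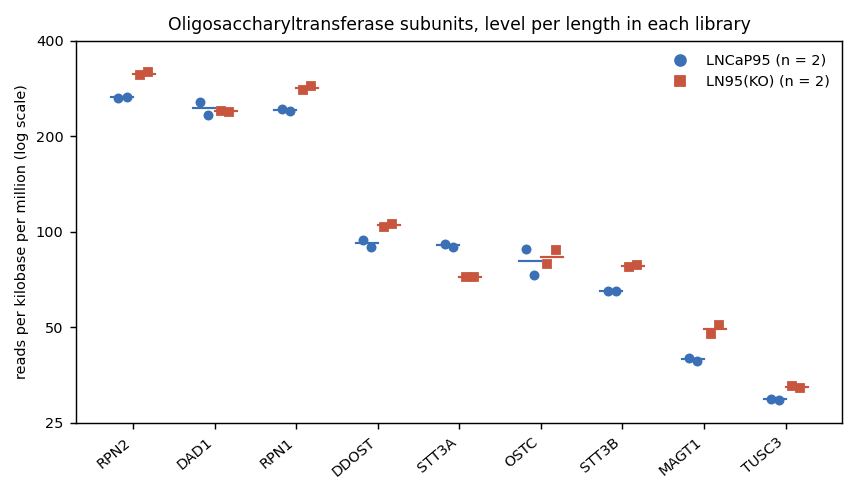
Level per length (RPKM, log axis) of the 9 OST subunits in each library, as circles for LNCaP95 (n = 2) and squares for LN95(KO) (n = 2), with a line at each group mean. STT3A is the subunit with both LN95(KO) values below both LNCaP95 values (71.8 against 90.7 RPKM on average), while DAD1 and OSTC overlap between groups.

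After transfer, glucosidase II and UGGT1 rose and the trimming mannosidase fell. Of the 7 genes of glucose trimming and glycan quality control, 3 rose, 3 fell and 1 did not pass, with a median of -0.02. Among all genes tested 29.8% rose and 30.1% fell. MOGS, glucosidase I, which removes the outermost glucose, fell by 0.17 ± 0.06 (edgeR adjusted p = 0.0172), but the adjusted p was 0.105, 0.0879 and 0.0714 without LNCaP95 replicates 1 and 2 and LN95(KO) replicate 4, and 0.113 in DESeq2. PRKCSH (chromosome 19, 11546105 to 11561783, plus strand), the beta chain of glucosidase II, which keeps the enzyme in the ER, measured 197 and 198 CPM in LNCaP95 and 275 and 274 CPM in LN95(KO). Its log2 fold change of 0.47 ± 0.05 had the smallest adjusted p of the members (edgeR, 1.32e-07). GANAB (chromosome 11, 62392298 to 62414198, minus strand), the catalytic alpha chain, rose less, from 717 and 695 CPM to 771 and 782 CPM (log2 0.14 ± 0.05, edgeR adjusted p = 0.0145). Its adjusted p was 0.0613 without LNCaP95 replicate 1 and 0.195 without LNCaP95 replicate 2. The ratio of GANAB to PRKCSH per length was 1.99 and 1.92 in LNCaP95 against 1.53 and 1.56 in LN95(KO), a log2 difference of -0.34 (exact permutation p = 0.333).

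UGGT1 and UGGT2 put a glucose back on misfolded glycoproteins so that calnexin and calreticulin bind them again. UGGT1 (chromosome 2, 128848774 to 128953251, plus strand), the main enzyme, measured 77.5 and 80.4 CPM in LNCaP95 and 110 and 105 CPM in LN95(KO) and rose by 0.45 ± 0.06 (edgeR adjusted p = 2.17e-06). UGGT2 (chromosome 13, 96453834 to 96705736, minus strand) measured 19.2 and 18.7 CPM against 14.0 and 14.5 CPM and fell by 0.41 ± 0.10 (edgeR adjusted p = 0.0013). Per length the ratio of UGGT1 to UGGT2 was 1.82 and 1.93 in LNCaP95 against 3.55 and 3.27 in LN95(KO). This was the widest shift among the 4 pairs compared, a log2 difference of 0.86 (exact permutation p = 0.333). MAN1B1, the ER mannosidase that marks glycoproteins for degradation, fell by 0.39 ± 0.06 (edgeR adjusted p = 2.71e-05), from 76.7 and 79.3 CPM to 61.3 and 58.2 CPM. MLEC (malectin), a lectin for glucosylated glycans, gave -0.02 (95% interval -0.12 to 0.07), and 14.1% of its exon bases are shared.

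**Figure D4:**
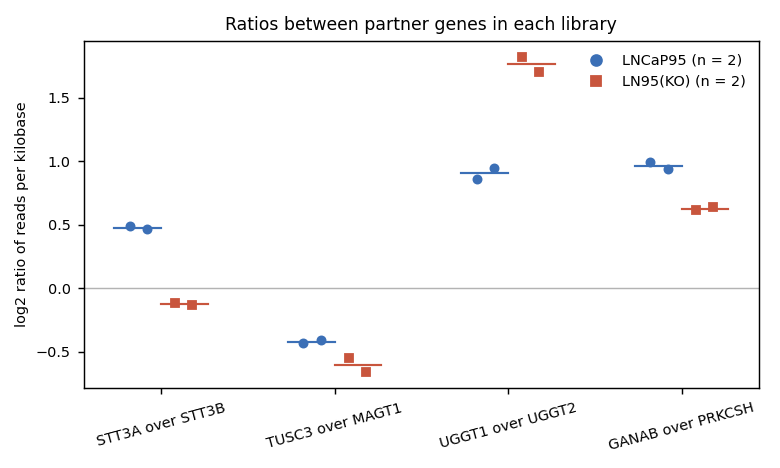
Log2 ratio of reads per kilobase between partner genes (vertical axis) in each library, as circles for LNCaP95 (n = 2) and squares for LN95(KO) (n = 2), with a line at each group mean. The groups do not overlap for any of the 4 pairs, while among all single genes tested 79.8% do not overlap. STT3A over STT3B crosses 0 (0.48 to -0.12 on average), and UGGT1 over UGGT2 rises from 0.91 to 1.77.

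Of the Golgi enzymes listed, both that could be tested fell, where 30.1% of all genes tested fell. MGAT1, which starts complex glycans, went from 116 and 118 CPM to 98.0 and 99.7 CPM (log2 -0.24 ± 0.05, edgeR adjusted p = 0.00077). MAN2A1, the mannosidase that follows it, went from 61.0 and 62.2 CPM to 48.3 and 45.6 CPM (log2 -0.39 ± 0.06, edgeR adjusted p = 4.35e-05). MGAT2, which adds the next branch, had 1, 1, 1 and 0 counts. Exons of another annotated gene cover 92.0% of its exon bases, and reads that fall on 2 genes are left out of counting, so these counts are not read as its expression. Summed over all 42 members, the level was 5456 ± 61.6 CPM in LNCaP95 and 5836 ± 104 CPM in LN95(KO) (SD, n = 2). Such a sum follows the most abundant genes, and the median log2 fold change of the 40 tested members was 0.03, with an unstable sign.

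Other genes of the pathway, 28 that are no members, gave more falls than rises. Of 27 tested, 13 fell and 5 rose at an adjusted p under 0.05 (30.1% and 29.8% among all genes tested), and 9 did not pass, with a median log2 fold change of -0.18. MGAT4A was the 1 gene called, against 18% of all genes tested. MGAT4A (chromosome 2, 99235569 to 99347595, minus strand), which adds a branch to complex glycans, had 222 and 221 counts in LNCaP95 against 82 and 54 in LN95(KO) and a log2 fold change of -1.67 ± 0.17 (edgeR adjusted p = 1.85e-07). The names in the rest of this account of other genes were chosen after their values were seen. MGAT5, MGAT4B and FUT8, which add further branches and core fucose, fell by 0.33, 0.18 and 0.28, and MAN1A2, a Golgi mannosidase, fell by 0.50. FUT8 did not pass without LNCaP95 replicate 1 (adjusted p = 0.0693), in DESeq2 (0.151), with library totals (0.0589) or without LN95(KO) replicate 4 (0.223), where its change was -0.14, and the change was -0.44 without LN95(KO) replicate 3. MGAT4B did not pass without LNCaP95 replicate 1 (adjusted p = 0.0667). The fall of TMEM258, a small OST subunit, had an SE of 0.07, and the interval of OST4, another, ran from -0.21 to 0.07. Of the named genes that are no members, shared exon bases reached 25.2% for OST4, 18.5% for KRTCAP2 and 15.2% for TMEM258. The share was 14.0% for SRD5A3, 11.8% for FUT8 and 35.6% for GNPNAT1, which is described next.

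The hexosamine pathway, which supplies UDP-GlcNAc to DPAGT1 and the branching enzymes, held the largest shifts after MGAT4A. GFPT1, its rate-limiting first enzyme, had 10554 and 10305 counts in LNCaP95 against 5773 and 5282 in LN95(KO) and a log2 fold change of -0.88 ± 0.05 (edgeR adjusted p = 2.66e-10). PGM3 fell by 0.74 ± 0.07 (edgeR adjusted p = 4.18e-08), from 62.2 and 58.8 CPM to 35.5 and 36.9 CPM. UAP1, the last enzyme, rose by 0.74 ± 0.05 (edgeR adjusted p = 6.69e-10), from 197 and 189 CPM to 329 and 316 CPM. GNPNAT1, between them, gave 0.19 ± 0.07 (edgeR adjusted p = 0.0372), which did not hold in DESeq2 (0.217), with upper quartile factors (0.0877), or without LNCaP95 replicate 1 (0.0622), LNCaP95 replicate 2 (0.189) or LN95(KO) replicate 4 (0.309), where the change was 0.09, and the change was 0.29 without LN95(KO) replicate 3.

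**Figure D5:**
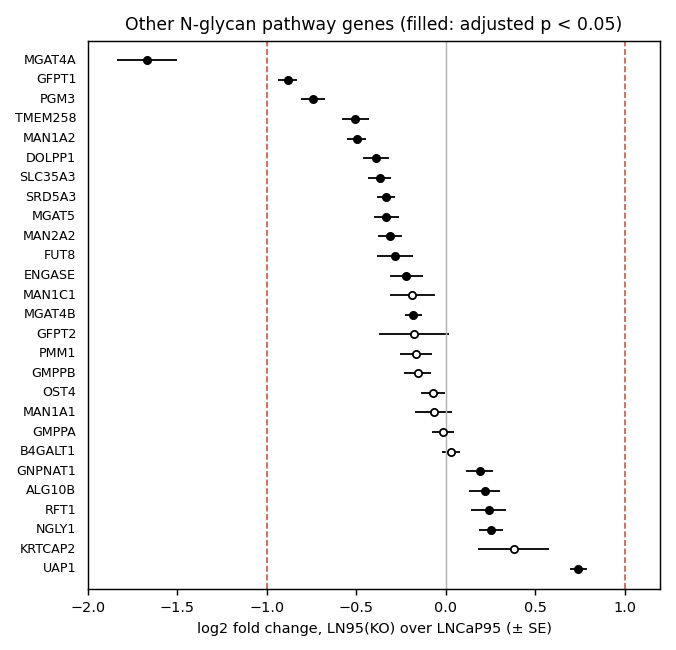
Log2 fold change (LN95(KO) over LNCaP95, horizontal axis) with SE of the 27 tested pathway genes that are no members, sorted by value. Filled points passed an adjusted p of 0.05, and dashed lines mark 2-fold changes. MGAT4A (-1.67) lies beyond the lower line, and GFPT1 (-0.88) and UAP1 (0.74) are inside the lines.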

How the data were processed

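Counts were analyzed from 4 libraries of cultured cells, 2 of LNCaP95 and 2 of LN95(KO), grouped by their labels. The authors deposited raw read counts for every gene. Per the labels, HISAT2 (version 2.1.0) was used for alignment, on hg19, and HTSeq for counting, on GENCODE release 29 per the study's methods, without strand, so antisense and overlapping genes could not be separated. The series table and the files of the single libraries differed in 0 cells. Of 60880 identifiers, 59899 matched a symbol and 981 did not. Gene positions and lengths came from GENCODE release 44 on GRCh37.

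The genes and lists were chosen with earlier results of these data known. Genes were kept by filterByExpr (minimum count 10, minimum total count 15), scaled by TMM factors and tested in edgeR (version 4.0.16, under R 4.3.3) by its quasi-likelihood test, with no covariate. The SE is the absolute log2 fold change divided by the square root of F. The coefficient of variation shared across genes was 4.27%. Between replicates, the chi-square divided by its degrees of freedom was 2.31 (LNCaP95) and 3.31 (LN95(KO)), above sampling noise. A count of 0 allows up to 3 counts, for counting error only. In full the text gives the 4 largest rises and 4 largest falls among members that passed, the pairs compared as ratios, SRD5A2, UGT2B17 and any gene called. PECAM1, an endothelial marker, had no matched identifier, and 1 leukocyte marker is not reported here. Alternatives were other scaling factors, DESeq2 (version 1.42.0), no filter, a test against 2-fold (glmTreat), no members with over 10% shared exon bases, and each library left out. The ratios without each library and lengths from all exon bases were added after seeing the data.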

Additional observations from a re-analysis of the deposited data

Results flagged for a closer look

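Reads outside the gene counts differed between the groups. Unaligned reads made up at least 7.71% of each LN95(KO) library and at most 3.96% of each LNCaP95 library. Among aligned reads, the share that aligned more than once was at least 4.12% in LN95(KO) and at most 3.96% in LNCaP95. Both were noticed because every LN95(KO) library lay above every LNCaP95 library. The part of either in the fold changes of the N-glycan genes was not tested.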

How the results depend on the processing

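No member was called under any of the 10 alternatives fitted over all genes or without the members that share over 10% of exon bases. The number that passed an adjusted p of 0.05 was 28 with RLE factors or library totals, 26 with upper quartile factors, 27 with no filter, 21 with DESeq2, 21 to 27 without each library (the lone library of a group is then assumed to vary like the others), and 22 of 29 without overlapping members. Under the other scaling factors, DESeq2, no filter and each left-out library, 18 of the 28, 10 higher and 8 lower, passed every time, while 0 passed the test against a 2-fold change (glmTreat). DPM1, ALG5, ALG14, ALG12, ALG10, TUSC3 and MOGS did not pass in DESeq2 (adjusted p 0.0687 to 0.225). With library totals DPM1, ALG5 and MOGS did not pass (0.0592 to 0.102), whereas NUS1, MPI and ALG9 did (0.0209 to 0.0221). With upper quartile factors GANAB (0.0604) and TUSC3 (0.131) did not pass. The median log2 fold change of the members was close to 0 and its sign was not stable: -0.0049 with upper quartile factors, 0.0892 with library totals, 0.0031 with DESeq2, -0.00053 with no filter, -0.0317 without overlapping members, and -0.0256 to 0.0844 without each library. Genes that changed sign had not passed the test: DHDDS (0.0439 with library totals, -0.0469 to 0.0306 without each library), PMM2 (-0.20 to 0.0019), ALG13 (0.0104 with totals, -0.0895 to 0.0056), ALG11 (-0.0166 with upper quartile factors, -0.17 to 0.24), DAD1 (0.0238 with totals, -0.0986 to 0.0375), OSTC (-0.0846 to 0.19) and MLEC (0.0332 with totals); the cause was not tested. Without each library, the log2 difference of the ratio was -0.61 to -0.58 for STT3A over STT3B and -0.24 to -0.13 for TUSC3 over MAGT1. It was 0.80 to 0.92 for UGGT1 over UGGT2 and -0.36 to -0.31 for GANAB over PRKCSH. Leaving out 1 library could not turn its direction, because the groups did not overlap for any of these ratios. UGT2B17 stayed between -7.09 and -6.98 and passed without each library. MGAT4A ranged from -2.02 to -1.37. With 2 libraries in each group, no permutation test could pass 0.05. No paired analysis was possible because no replicate number occurs in both groups.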
